A study of Mus musculus with 45 samples.

Results

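The effect of lipopolysaccharide (LPS) on gene expression was compared between sorted microglia and brain tissue of adult mice, gene by gene. The genes were those found in both expression tables under the same Ensembl identifier and passing a low-count filter in each table, which kept 10913 genes. The filter kept 12987 genes in microglia and 15083 in brain tissue when each was taken alone. For each gene the quantity of interest was the difference of effects, that is, the log2 fold change of LPS against PBS in microglia minus the log2 fold change of LPS against untreated in brain tissue. A value above 0 therefore means a more positive response in microglia, and a value below 0 a more positive response in brain tissue.

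The study profiled organotypic brain slices, slice microglia, microglia from adult mice and adult brain tissue, and 16 of its 45 samples entered this comparison. The mice were C57BL/6 females aged 10 to 15 weeks, and the labels of all 16 samples read WT (wild type). Microglia were sorted by flow cytometry as CD11b high, CD45 intermediate cells 24 h after an intraperitoneal injection of LPS at 1 mg/kg (4 samples) or of PBS (4 samples). Brain tissue was snap frozen 24 h after an injection of LPS at that dose (4 samples) or came from mice given no treatment (4 samples). Mice of the LPS experiments were perfused with buffer before the brain was taken. The microglia libraries were made from amplified cDNA (SMART-Seq v4 and Nextera XT) and read as pairs, whereas the tissue libraries were made with a TruSeq mRNA kit and read from 1 end. Tissue, library kit, sequencing run and type of control (injected or untouched) changed together, so a difference of effects between microglia and brain tissue cannot be told apart from a difference due to any of these. Replicates are separate samples by their labels, which do not say that each came from its own animal, so p-values measure the spread between these samples.

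LPS is a component of the outer membrane of Gram-negative bacteria that is sensed by Toll-like receptor 4 with its co-receptor CD14, and the receptor signals through NF-kappaB and induces type I interferon. Microglia are the resident macrophages of the brain parenchyma. They are a minor fraction of brain tissue, where neurons, astrocytes, oligodendrocytes and vascular cells supply most of the RNA, and a peripheral injection of LPS reaches the brain largely by way of blood-borne mediators and the vascular wall. A transcript made mostly by microglia can still be followed in tissue, whereas the microglial part of a broadly expressed transcript is diluted there.

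Library totals ranged from 11391564 to 14216005 counts in microglia and from 8199863 to 10368578 in brain tissue. The summed level of 20 homeostatic microglia markers was 108366 to 115361 CPM (gene counts brought to a common library total after scaling for library composition) in PBS microglia and 1112 to 1220 CPM in untreated tissue, while 8 neuronal markers summed to 0.933 to 2.11 CPM across the microglia libraries and to 7225 to 7915 CPM across the tissue libraries. One library stood apart. Replicate 2 of the LPS-treated microglia was the least changed of its group in 1007 of the 1563 genes called higher in microglia (64.4%) and in 852 of the 1327 genes called lower (64.2%), and results that turn on it are given with and without it.

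LPS changed far more genes in microglia than in brain tissue. Here a gene was called when its adjusted p was under 0.05 and its fold change over 1.5, the study's own limits, in edgeR's quasi-likelihood test with Benjamini-Hochberg adjustment. Among the 10913 shared genes, 1563 (14.3%) were higher and 1327 (12.2%) lower with LPS in microglia, against 297 (2.72%) higher and 34 (0.312%) lower in brain tissue. The difference of effects itself was called for 2897 genes (26.5%), of which 1390 (12.7%) lay above 0 and 1507 (13.8%) below 0. The median effect over all shared genes was 0.02 in microglia and 0.01 in brain tissue, and the median difference was -0.01, on the log2 scale. The median standard error was 0.12 in microglia, 0.092 in brain tissue and 0.15 for the difference on the same scale. In bulk tissue, a change in the number of cells of a type and a change in RNA per cell cannot be told apart.

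The called genes were sorted by requiring a call in 1 tissue, no call in the other and a call for the difference. By this rule 1145 genes (10.5%) were higher in microglia only, 1094 (10%) lower in microglia only, 91 (0.834%) higher in brain tissue only and 4 (0.0367%) lower in brain tissue only. Another 16 genes (0.147%) were called in opposite directions. By contrast, 161 genes were higher in both tissues and 17 lower in both, and in 141 of those 178 genes the difference was not called. A missing call in the other tissue does not by itself show that the gene was unaffected there. The 95% confidence interval of the brain effect stayed within 1.5-fold of no change for 972 of the 1145 genes higher in microglia only (84.9%) and for 912 of the 1094 lower in microglia only (83.4%). For the brain-only genes the microglia interval stayed within that limit for 60 of the 91 higher (65.9%) and for 1 of the 4 lower. A further 510 genes had a called difference with no call in either tissue.

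**Figure D1:**
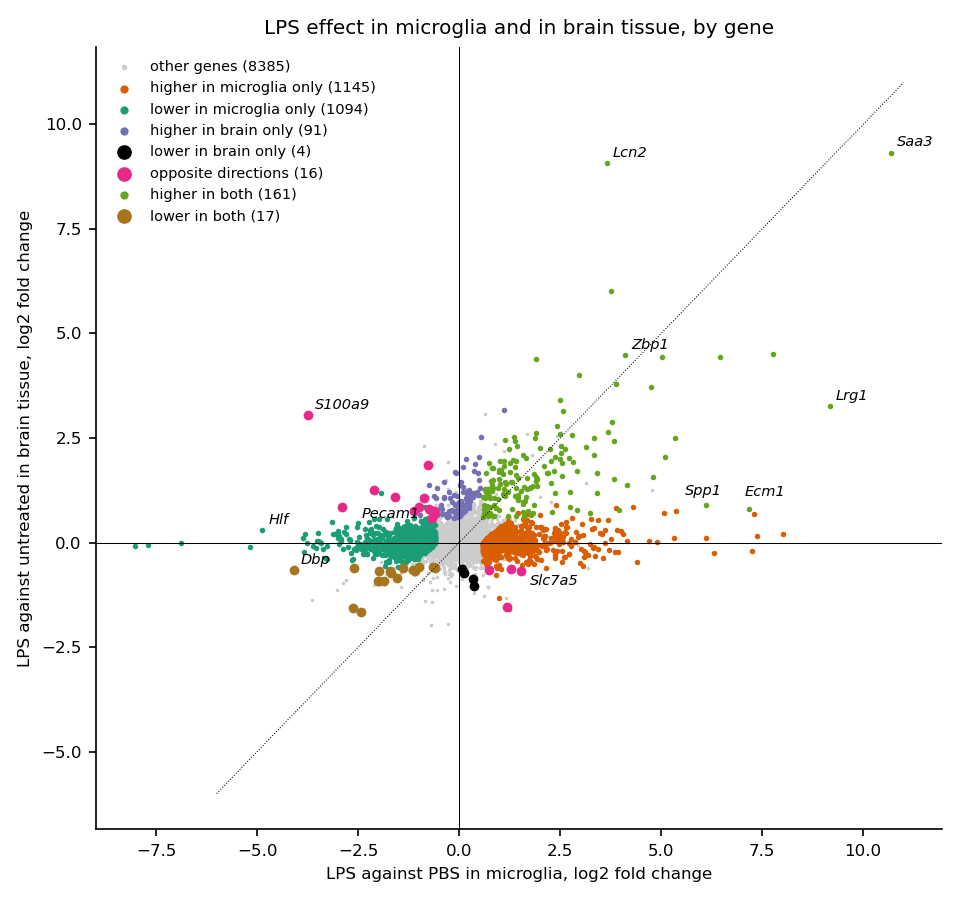
Each point is 1 of the 10913 shared genes, with the LPS effect in microglia on the x axis and in brain tissue on the y axis (log2 fold change, 4 samples a group), coloured by class, and the dotted line marks equal effects. Genes higher or lower in microglia only (1145 and 1094) spread along the horizontal axis, the 161 genes higher in both lie in the upper right, and the 16 genes of opposite direction lie in the other 2 quadrants.

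The 5 well expressed genes higher in microglia only with the smallest p of the difference were Nme1, Rpsa, Psat1, Cd63 and Naaa. Nme1, a nucleoside diphosphate kinase (chr11:93956979-93968521, minus strand, GRCm38), measured 24.3, 24.4, 23 and 21.8 CPM in the 4 PBS microglia samples and 60.7, 58.4, 60.9 and 70.1 CPM with LPS. In brain tissue it measured 111, 121, 114 and 118 CPM untreated and 103, 103, 101 and 92.9 CPM with LPS. Microglia rose without overlap and the tissue samples moved slightly the other way, giving effects of 1.42 and -0.21 and a difference of 1.63 (SE 0.092, adjusted p = 7.44e-10). Psat1, the aminotransferase of serine synthesis (chr19:15904678-15947337, minus strand), rose from 21.7, 16.8, 26.3 and 22.6 CPM to 98.4, 89.3, 111 and 103 CPM in microglia. The tissue samples held 102, 106, 103 and 103 CPM untreated and 101, 103, 108 and 98.6 CPM with LPS, and these overlapped. The effect was 2.20 in microglia and -0.01 in brain tissue (difference 2.22, SE 0.13, adjusted p = 8.03e-10). Naaa, a lysosomal amidase that degrades N-acylethanolamines (chr5:92257659-92278170, minus strand), measured 59.4, 54, 57.4 and 61 CPM in PBS microglia and 269.8, 288, 231 and 243 CPM with LPS. In tissue it went from 24.7, 25, 24 and 23.5 CPM to 27.4, 31.2, 30.1 and 32.6 CPM. Naaa was thus above its control in every LPS sample of both tissues, but the tissue effect of 0.32 was under the fold limit and the difference was 1.83 (SE 0.11, adjusted p = 8.03e-10). Rpsa, a protein of the small ribosomal subunit (chr9:120127689-120132369, plus strand), and Cd63, a tetraspanin of late endosomes and lysosomes (chr10:128900989-128912822, plus strand), gave differences of 1.67 (SE 0.094) and 1.68 (SE 0.098). Their tissue groups overlapped.

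Of the well expressed genes lower in microglia only, the 5 with the smallest p of the difference were Hlf, Ank, Hdac11, Apba1 and Maf. Hlf, a clock output transcription factor of the proline and acidic amino acid-rich family (chr11:90336536-90390895, minus strand), fell from 11.7, 12.3, 10.6 and 9.23 CPM to 0.510, 0.342, 0.460 and 0.147 CPM in microglia. In brain tissue it measured 234.9, 249.9, 226 and 225 CPM untreated and 274, 277, 308 and 296 CPM with LPS. Every LPS-treated microglia sample was below 1 CPM while every LPS-treated tissue sample was above its controls, with effects of -4.87 and 0.30 and a difference of -5.17 (SE 0.21, adjusted p = 6.69e-12). The microglia effect of Hlf alone had an SE of 0.28, larger than that of the difference. Hlf passed the low-count filter in microglia through its PBS samples, so the filter favoured the direction called. Maf, a transcription factor of tissue macrophages including microglia (chr8:115682942-115707794, minus strand), fell from 283, 287, 275 and 284 CPM to 117, 131, 124 and 117 CPM in microglia. In tissue the untreated samples at 25.2, 26.7, 23.1 and 24.3 CPM and the LPS samples at 27, 29.1, 26.7 and 25.9 CPM overlapped, and the difference was -1.33 (SE 0.086, adjusted p = 2.1e-09). Hdac11, a histone deacetylase (chr6:91156665-91174692, plus strand), Apba1, an adaptor that binds the amyloid precursor protein (chr19:23758887-23949596, plus strand), and Ank, a membrane protein of pyrophosphate export (chr15:27466677-27594909, plus strand), fell by 2.11, 2.07 and 1.62 on the log2 scale in microglia. In tissue the LPS and untreated samples of all 3 overlapped and their effects were -0.02, -0.05 and -0.01. The SEs of their microglia effects (0.169, 0.155 and 0.103) were also larger than those of their differences (0.128, 0.126 and 0.0977).

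**Figure D2:**
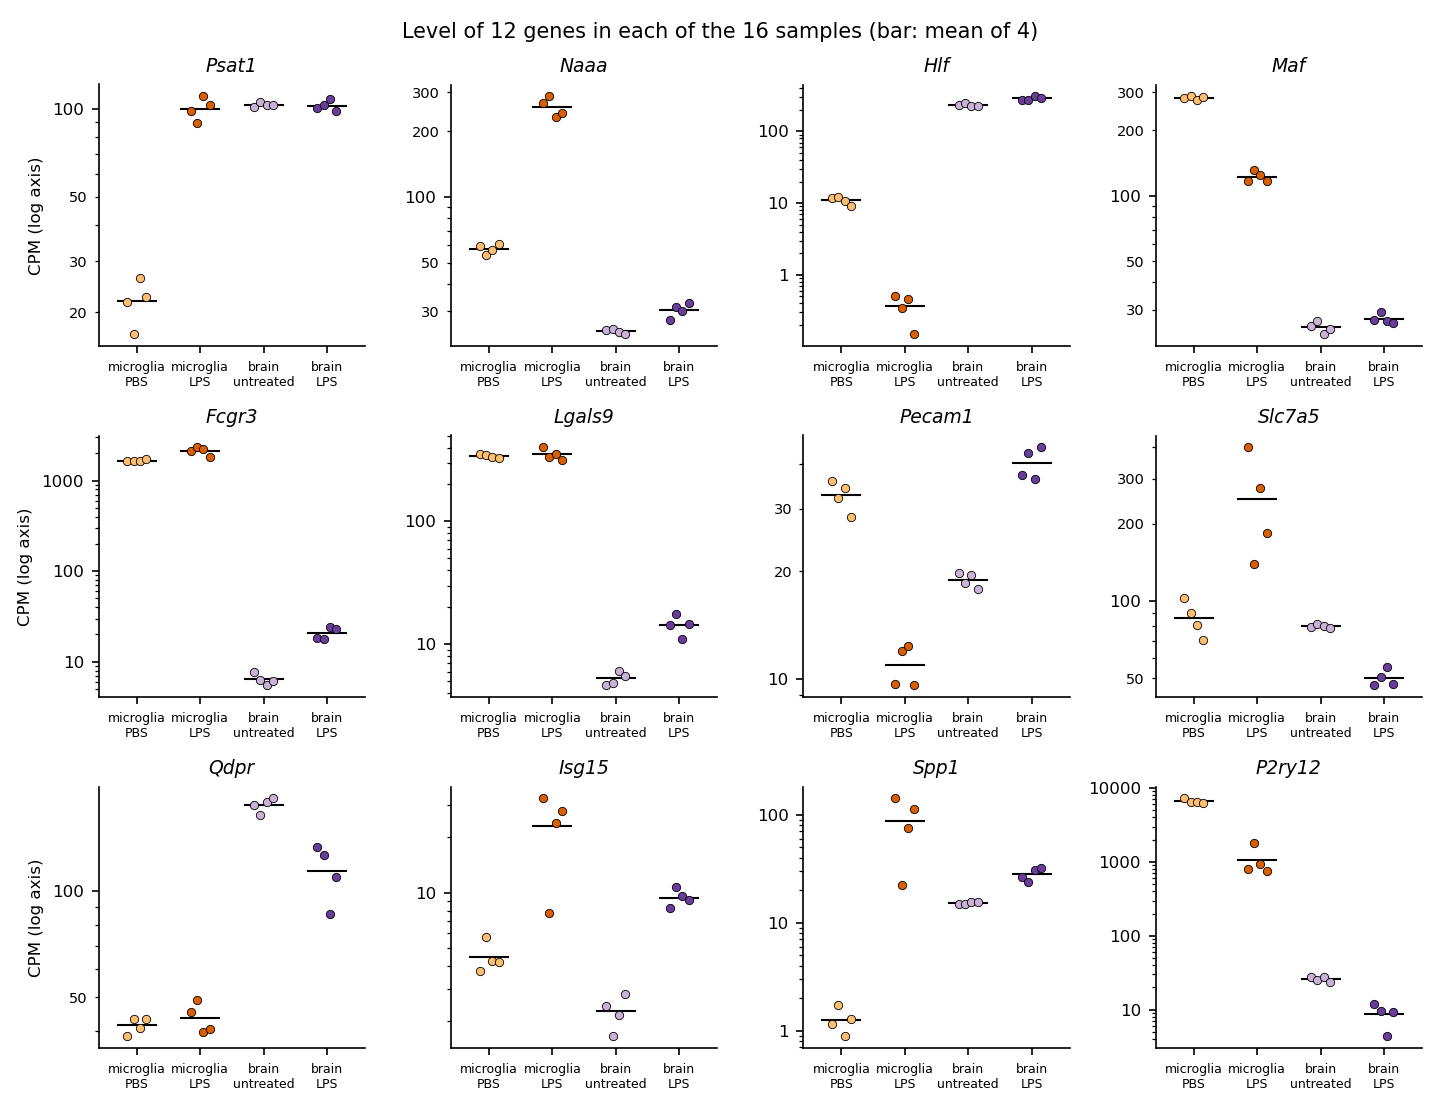
Level of 12 genes in each of the 16 samples, in CPM on a log axis, with a bar at the mean of each group of 4. Psat1 and Naaa rise and Hlf and Maf fall in microglia while tissue moves little, Fcgr3 and Lgals9 rise mainly in tissue, Pecam1 and Slc7a5 move in opposite directions, Qdpr falls in tissue, and Isg15, Spp1 and P2ry12 change the same way in both.

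Genes of DNA replication were higher in microglia. Of 15 tested members of a list of 18, edgeR called 13 higher in microglia and the difference above 0 for 12. In brain tissue it called 0, as did DESeq2 and limma-voom, and 1 was higher at an unadjusted p under 0.05. The median effect was 1.52 in microglia and 0.14 in tissue, beside 0.02 and 0.01 over all genes. Among all 10913 genes, 14.3% were called higher and 12.2% lower in microglia, and 2.72% higher and 0.312% lower in tissue. The difference was called above 0 in 12.7% and below 0 in 13.8%. These shares stand beside the counts of every list. A tissue count of 0 in a short list is near them, so nothing is read from it. Mcm5, a subunit of the replicative helicase (chr8:75109569-75128439, plus strand), measured 18.7, 15.9, 13.5 and 10.3 CPM in PBS microglia and 73.8, 119, 70.7 and 85.6 CPM with LPS. Its tissue values of 7.74, 5.83, 5.90 and 7.10 CPM untreated and 8.44, 7.66, 6.53 and 6.63 CPM with LPS overlapped, and the difference was 2.44 (SE 0.29, adjusted p = 4.46e-06). Mcm2, of the same helicase, rose from 17.6 ± 3.45 to 102 ± 21.9 CPM (SD, n = 4) in microglia and measured 5.95 ± 0.952 and 5.17 ± 0.916 CPM in tissue. The largest difference of the list was that of Chaf1a, a subunit of the histone chaperone CAF-1 (3.67), followed by Timeless, a replication fork protein (3.25), and the smallest that of Tyms, thymidylate synthase (0.16). Of 6 tested mitosis genes in a list of 18, 3 were higher in microglia, and Top2a, a topoisomerase (2.11), and Aurka, a spindle kinase (1.87), had a called difference. In tissue 0 were called by edgeR, DESeq2 or limma-voom, and 0 had an unadjusted p under 0.05.

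Promoter windows were searched for 3 short motifs on both strands to set the sequences of the groups side by side. The windows, 250 bases before to 50 bases from the start site on, came from RefSeq (GRCm38.p6) and were found for 8345 of the 10913 genes. E2F factors drive replication genes, and the letters TTTCCCGC or TTTGGCGC were taken as the E2F motif. It lay in 4 of 14 windows of the replication list (28.6%; Cdt1, Mcm3, Mcm5 and Mcm7), in 4.69% of the windows of all genes higher in microglia only, in 1.76% of those lower in microglia only, in 3.08% of those of all genes tested and in 1.56% of all windows of the table. Stretches around 3 of the 4 matches are shown. All 3 genes encode helicase subunits that rose in microglia, by 2.58 for Mcm5, 1.21 for Mcm7 and 0.93 for Mcm3, although the difference of Mcm3 was not called (0.47). Each is written 5′ to 3′ on the gene's own strand, with capitals at the match on whichever strand it was read. Mcm5 lies on the plus strand at chr8:75109315-75109412, with the match 149 to 142 bases before the start. Mcm7 lies on the minus strand at chr5:138171996-138172093, with the match 165 to 158 bases before the start. Mcm3 lies on the minus strand at chr1:20820283-20820338, with the match 20 to 27 bases after the start.
Mcm5: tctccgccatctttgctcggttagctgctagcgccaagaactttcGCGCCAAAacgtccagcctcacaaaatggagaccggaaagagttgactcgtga
Mcm7: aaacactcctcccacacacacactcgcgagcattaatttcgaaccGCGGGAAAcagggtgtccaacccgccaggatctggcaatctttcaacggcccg
Mcm3: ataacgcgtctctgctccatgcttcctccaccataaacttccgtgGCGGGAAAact
A match is a description of these letters and not a site of binding.

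Ribosomal protein genes rose in microglia. Of 77 tested genes of the cytosolic ribosome, edgeR called 54 higher in microglia, with a median effect of 0.70. In brain tissue it called 0, as did DESeq2 and limma-voom, the median was -0.01, and 6 were higher and 4 lower at an unadjusted p under 0.05. The difference was called above 0 for 52 genes, or 49 when libraries were scaled to total counts, and 49 met the rule for higher in microglia only. The differences ran from -0.13 (Rps27) to 1.48 (Rpl12), and Rpl12, a protein of the large subunit, measured 10.6 ± 1.18 and 29.3 ± 4.35 CPM (SD, n = 4) in PBS and LPS microglia against 10.3 ± 1.48 and 10.1 ± 2.02 CPM in untreated and LPS tissue. Ribosomal protein genes have many processed copies in the genome, so reads could be divided among copies, and paired and single reads could be divided differently.

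Chaperones of the endoplasmic reticulum, which fold secreted and membrane proteins, rose in microglia in 11 of 12 genes and in brain tissue in 1, and the difference was called above 0 in 10. In tissue 7 were higher at an unadjusted p under 0.05, 3 were called by DESeq2 and 0 by limma-voom. The median effect was 1.42 in microglia and 0.31 in tissue. Hspa5 (BiP, chr2:34771970-34777547, plus strand) measured 900.0, 877, 981 and 1018 CPM in PBS microglia and 3220.2, 2775, 2889 and 3529 CPM with LPS. In tissue it measured 193, 178, 169.9 and 169 CPM untreated and 370.3, 304, 184 and 279.7 CPM with LPS, so replicate 3 of the LPS tissue lay among the controls and the tissue effect of 0.68 (SE 0.21) was not called. Sdf2l1, a co-chaperone, was the one member called in both, with effects of 1.90 and 1.48. Of 15 glycolysis genes 5 were higher and 1 lower in microglia. In tissue edgeR, DESeq2 and limma-voom called 0, while 2 were higher and 7 lower at an unadjusted p under 0.05. Gapdh, Pgk1, Pkm and Ldha had a difference called above 0, and the largest was that of Ldha, lactate dehydrogenase A (1.09, SE 0.092). Hk1, the first enzyme of the pathway, went the other way (-0.77 in microglia, -0.07 in tissue).

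All the gene lists were chosen with earlier results of these data known. Lists of 3 further pathways were drawn up after values had been seen and are given only as a description. In the first, sterol synthesis and uptake, 12 of 21 tested genes were higher in microglia and 3 lower in tissue, and the difference was called above 0 for 16. The median effect was 0.66 in microglia and -0.41 in tissue, where 18 of the 21 were lower at an unadjusted p under 0.05. Sqle, squalene monooxygenase, went from 2.20 ± 0.281 to 7.45 ± 1.03 CPM (SD, n = 4) in microglia and from 66.8 ± 4.08 to 49.3 ± 3.69 CPM in tissue, with a difference of 2.20 (SE 0.16). Hmgcs1, an early enzyme of the pathway, was called lower in tissue (-0.74) but not in microglia (-0.24), and its difference of 0.50 was not called. In the second list, serine and one-carbon synthesis with the amino acid response, 8 of 15 tested genes were higher in microglia, which became 13 without replicate 2 of the LPS microglia, and 1 was lower in tissue. Slc1a5, a glutamine transporter, and Shmt2, which makes glycine and one-carbon units in mitochondria, rose by 2.80 and 1.71 in microglia, with effects of 0.58 and -0.15 in tissue.

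The third list, the circadian clock, fell in microglia in 9 of 14 tested genes and in brain tissue in 1, with a median effect of -1.56 and 0.11. The difference was called below 0 for 9. It was called above 0 for 0 by edgeR, DESeq2 and limma-voom, for 1 at an unadjusted p under 0.05, and for 2 in edgeR without replicate 2 of the LPS microglia. Dbp, a clock output gene, was lower in both tissues, from 11.5 ± 1.96 to 0.671 ± 0.0701 CPM (SD, n = 4) in microglia and from 88.3 ± 4.60 to 56 ± 8.94 CPM in tissue, with a difference of -3.42 (SE 0.23). Nr1d1 (REV-ERB alpha), a repressor of the clock, measured 3.16, 4.81, 5.88 and 6.56 CPM in PBS microglia and 0.656, 0.428, 0.153 and 0.147 CPM with LPS. Its tissue effect was -0.23, under the fold limit. Dbp, Nr1d1 and Hlf, also of this list, passed the low-count filter in microglia through their PBS samples, so the filter favoured a fall in these genes. Per2, of the repressive limb, fell by 1.98 on the log2 scale in microglia and had an effect of 0.57 in tissue, while Clock itself, of the activating limb, had effects of 0.06 and 0.09. The hour of sampling is not given in the sources used here.

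**Figure D3:**
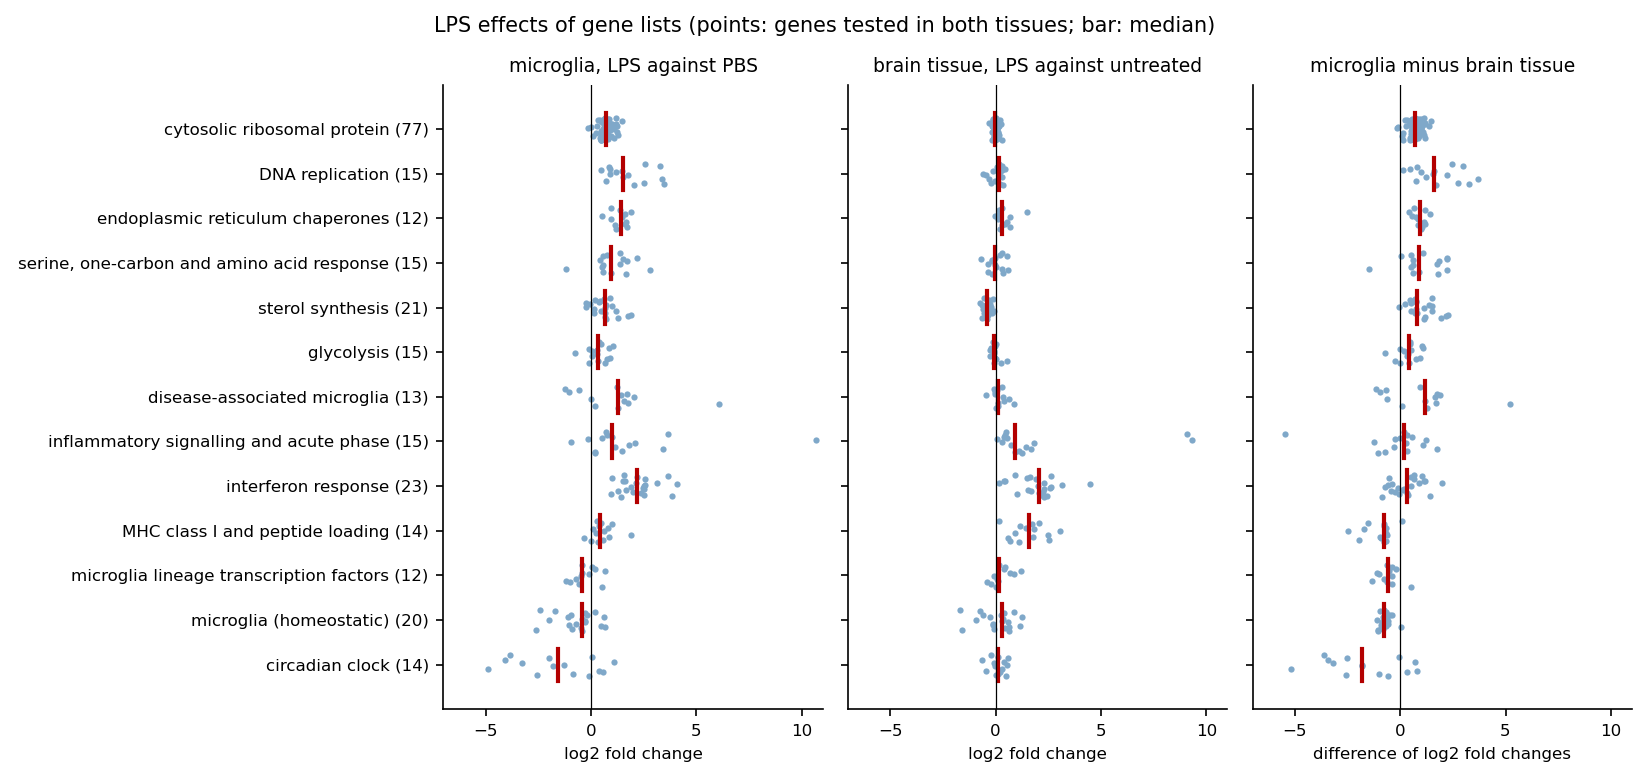
LPS effects of 13 gene lists in microglia (left), in brain tissue (middle) and their difference (right), on the log2 scale, where points are genes tested in both tissues and red bars the median. Medians of the interferon list are alike in both tissues (2.18 and 2.05). Those of DNA replication are 1.52 in microglia and 0.14 in tissue, and those of ribosomal protein genes 0.70 and -0.01. MHC class I genes shift more in tissue, and clock genes fall in microglia.

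Most of the 91 genes raised in brain tissue only were ones with a much higher level in the microglia libraries. Taking the mean of all 8 libraries of each tissue, 57 of them had a level over 16-fold higher in microglia, and 68 (74.7%) a level over 4-fold higher, against 13.9% of all genes tested. Lgals9, galectin 9 (chr11:78962974-78984946, minus strand), measured 354, 345, 332 and 326 CPM in PBS microglia and 401, 337, 356 and 316 CPM with LPS. In tissue it measured 4.62, 4.86, 6.11 and 5.54 CPM untreated and 14.5, 17.6, 11.1 and 14.7 CPM with LPS. The microglia groups overlapped and the tissue groups did not, with effects of 0.06 and 1.45 (difference -1.40, SE 0.16, adjusted p = 1.7e-06). Fcgr3, an activating Fc gamma receptor (chr1:171051174-171064935, minus strand), went from 1629, 1661, 1628 and 1706 CPM to 2129.7, 2320.1, 2245 and 1835 CPM in microglia. In tissue it went from 7.64, 6.32, 5.48 and 6.06 CPM to 18.5, 17.8, 24.3 and 22.9 CPM. All LPS samples lay above their controls in both tissues, but the microglial effect of 0.36 was under the fold limit while that in tissue was 1.71 (difference -1.34, adjusted p = 1.64e-06). Abi3, a cytoskeletal adaptor of myeloid cells (chr11:95830074-95842476, minus strand), and Clic1, a chloride intracellular channel protein (chr17:35049966-35058749, plus strand), had tissue effects of 1.22 and 1.15 and microglial effects of -0.26 and 0.20.

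The tissue effect also varied with the relative level over all genes tested. Among the 438 genes whose level was over 16-fold higher in microglia, the median effect was 0.43 in tissue and 0.01 in microglia, and 82.9% had a tissue effect above 0. Their difference was called below 0 in 36.8% and above 0 in 3.42%, beside 13.8% and 12.7% of all genes. In the other direction, among 476 genes over 16-fold lower in microglia the median microglial effect was -0.31, and 32.8% had a difference called below 0. Genes at these extremes can lie near the low-count limit in the tissue with the lower level. There a gene could pass the filter through its LPS or its control samples alone, which favours the direction of that group. The part of the filter in these medians, and in the genes higher in tissue only, was not tested. The summed homeostatic marker level in tissue was 1112 to 1220 CPM untreated and 1075 to 1402 CPM with LPS, so these ranges overlapped. In the microglia libraries the same sum fell from 108366 to 115361 CPM with PBS to 76404 to 85594 CPM with LPS. The sum in tissue therefore does not measure the number of microglia alone. The part of microglial number in the genes higher in tissue only was not tested.

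**Figure D4:**
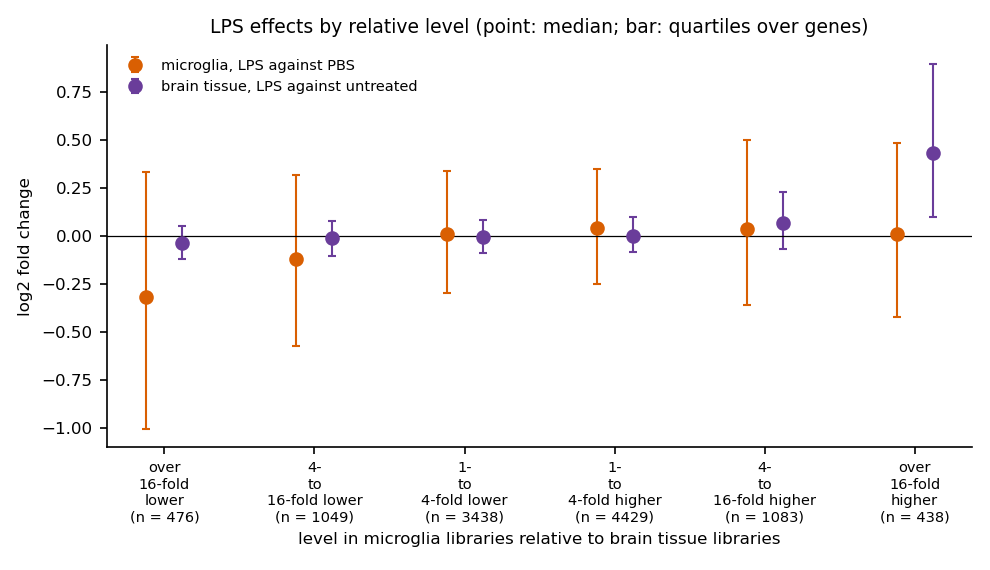
Median LPS effect (points) and quartiles over genes (bars) in microglia and in brain tissue, on the log2 scale, for genes grouped by their level in microglia libraries relative to brain tissue libraries. The median in tissue is near 0 in each group up to 4-fold higher and reaches 0.43 in the 438 genes over 16-fold higher in microglia, where the microglial median is 0.01. Genes of the outer groups can lie near the low-count limit in the tissue with the lower level, and the part of the filter was not tested.

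MHC class I genes and the machinery that loads their peptides, which display fragments of cell proteins to T cells, rose mainly in tissue. Of 14 tested genes, 12 were called higher in tissue and 4 in microglia, the difference was called below 0 in 10, and the median effect was 0.45 in microglia and 1.60 in tissue. The 7 that met the rule for tissue only were H2-Q4, H2-Q7, H2-T23, B2m, Tap2, Tapbp and Psmb8, of which H2-Q7 and H2-T23 were close to the limit (adjusted p = 0.0496 and 0.0473). Psmb8, a subunit of the immunoproteasome (chr17:34197721-34201454, plus strand), measured 137, 146, 149 and 153 CPM in PBS microglia and 178, 138, 155 and 151 CPM with LPS. In tissue it rose from 1.71, 2.24, 3.00 and 2.72 CPM to 6.86, 8.02, 9.79 and 9.44 CPM. The microglia groups overlapped and the tissue groups did not, with a difference of -1.73 (SE 0.19, adjusted p = 1.01e-06). B2m, the light chain of class I molecules, measured 1815, 1923, 1693 and 1852 CPM in PBS microglia and 2746, 1592, 2345 and 2548 CPM with LPS, where replicate 2 was below every control and the other 3 above. In tissue B2m went from 67.6, 70.2, 67.8 and 63.8 CPM to 151, 146, 133 and 149 CPM, and the difference was -0.76 (SE 0.16). Without replicate 2 of the LPS microglia the difference was called in 8 of the 14 genes, and that of Tapbp, a peptide loading chaperone, went from -0.68 to -0.58, under the fold limit. The H2 genes share sequence, so their reads may be divided among them.

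**Figure D5:**
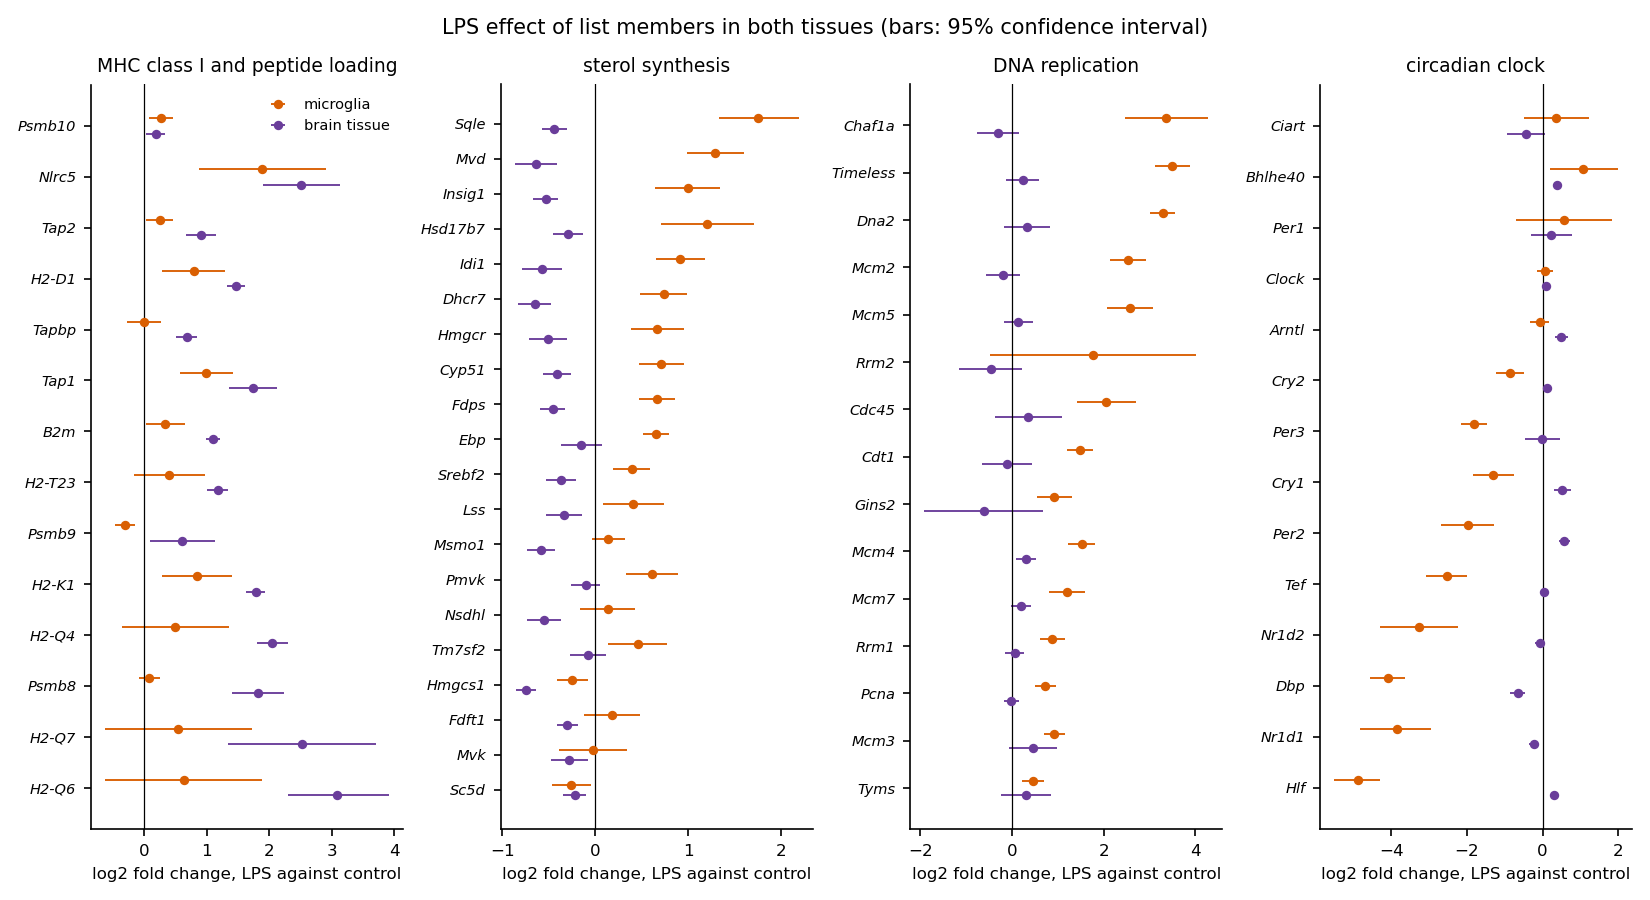
LPS effect of tested members of 4 lists in microglia (orange) and brain tissue (purple) as log2 fold change with its 95% confidence interval, ordered by the difference. MHC class I genes other than Psmb10 lie further right in tissue, sterol genes other than Sc5d and DNA replication genes further right in microglia, and clock genes from Hlf to Cry2 further left in microglia.

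Receptors and regulators of myeloid cells were also among the genes higher in tissue only, and the following come from the lists of inflammatory signalling and of microglial genes. Tlr4, the LPS receptor, had effects of 0.19 in microglia and 0.93 in tissue, and Cd14, its co-receptor, 0.20 and 1.23. The difference lost its call for Tlr4 without replicate 4 of the LPS tissue (-0.59, adjusted p = 0.0798) and for Cd14 without replicate 3 of the untreated tissue (-0.90, adjusted p = 0.0506). C1qb, a chain of complement C1q, had effects of 0.46 and 1.15, and its difference of -0.69 fell just under the fold limit without replicate 4 of the LPS tissue (-0.58). Irf8 and Spi1 (PU.1), transcription factors that specify the myeloid lineage, rose in tissue by 0.68 and 0.89 and had effects of -0.43 and -0.10 in microglia. The interferon-stimulated response element core GAAANNGAA lay in 10 of 79 promoter windows of the tissue-only genes (12.7%) and in 41 of 138 windows of genes higher in both (29.7%), and in 10 of 18 windows of the interferon list (55.6%), against 6.95% of the windows of all genes tested and 8.56% of all windows of the table. For comparison it lay in 7.3% of the windows of genes higher in microglia only and in 6.39% of those lower in microglia only. It also lay in 13 of 69 windows of the ribosomal protein list (18.8%), which had 0 calls in tissue. In the MHC class I list it lay in 2 of 13 windows (15.4%). The share in the tissue-only genes is thus not particular to them. Stretches of Lgals9, from the tissue-only genes, and of Ifitm3, from the genes higher in both, are shown, and each holds 2 matches, in capitals. Lgals9 is on the minus strand at chr11:78984895-78985023 and its matches span 54 to 46 bases before and 17 to 25 bases after the start. Ifitm3 is on the minus strand at chr7:141010715-141010787 and its matches span 3 to 11 and 20 to 28 bases after the start.
Lgals9: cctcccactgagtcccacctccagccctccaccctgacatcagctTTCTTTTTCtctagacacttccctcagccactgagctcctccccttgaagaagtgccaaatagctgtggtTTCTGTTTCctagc
Ifitm3: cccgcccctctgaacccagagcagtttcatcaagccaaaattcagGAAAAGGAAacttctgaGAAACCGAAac
In Lgals9 the core is read on the opposite strand. The kappa B letters GGGANTTTC lay in 1.11% of all windows, in 0.918% of those of genes tested, in 0.992% and 0.504% of those higher and lower in microglia only, in 1.27% of the tissue-only genes and in 3.62% of those higher in both. Among the genes called in opposite directions they lay in 2 of 16 windows (12.5%), those of Phyhd1 and S100a9.

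Of the 4 genes that were called lower in brain tissue, not called in microglia and called for the difference, 3 are given. Pltp, the phospholipid transfer protein (chr2:164839518-164857711, minus strand), fell from 72.4, 77.4, 82.4 and 76.6 CPM to 39.5, 42, 26.1 and 41.2 CPM in tissue, with a difference of 1.43 that limma-voom left just uncalled (adjusted p = 0.0511). Qdpr, which regenerates tetrahydrobiopterin (chr5:45434021-45450236, minus strand), fell from 177, 165, 179 and 184 CPM to 134, 127, 86.4 and 110.0 CPM in tissue. Its difference of 0.69 was 0.58 without replicate 3 of the LPS tissue, under the fold limit. Adam33, a membrane metalloprotease (chr2:131050591-131063814, minus strand), fell from 11.4, 12.4, 10.9 and 13 CPM to 6.54, 7.66, 6.29 and 5.62 CPM in tissue (difference 1.22, SE 0.29). The summed level of 8 oligodendrocyte markers in tissue was 6367 to 6953 CPM untreated and 4847 to 5795 CPM with LPS, which did not overlap, and their part in these results was not tested. Mag and Cnp, 2 of those markers, had tissue effects of -0.52 and -0.50, under the fold limit.

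The 16 genes called in opposite directions fell into 4 that rose in microglia and fell in tissue and 12 that did the reverse. Of the first kind, Mvd and Dhcr7 are enzymes of cholesterol synthesis. Mvd, mevalonate diphosphate decarboxylase (chr8:122433601-122443422, minus strand), went from 8.04, 7.76, 10.1 and 8.36 CPM to 22.6, 16.9, 20.0 and 24.4 CPM in microglia. In tissue it went from 18.3, 16, 19 and 20.1 CPM to 12.9, 11.1, 10.0 and 13.1 CPM. Neither tissue's groups overlapped, with effects of 1.29 and -0.63 (difference 1.93, SE 0.18, adjusted p = 1.66e-07). Dhcr7, a late enzyme of the pathway (chr7:143823145-143848410, plus strand), had effects of 0.74 and -0.65, again without overlap. Slc7a5, a transporter of large neutral amino acids (chr8:121881150-121907694, minus strand), rose from 103, 90.1, 80.5 and 70.6 CPM to 398, 139, 276 and 184 CPM in microglia. In tissue it fell from 79.5, 81.4, 80.3 and 78.7 CPM to 46.9, 50.5, 55.6 and 47.7 CPM. The rise in microglia was uneven, lowest in replicate 2, and the difference was 2.21 (SE 0.36, adjusted p = 0.000232). Timm8a1, of mitochondrial protein import, was the fourth (1.18 and -1.55), and its microglia groups overlapped.

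Of the genes that fell in microglia and rose in tissue, Pecam1, Vwf and Procr are known from endothelium. Pecam1, an adhesion molecule of endothelium and leukocytes (chr11:106654217-106750628, minus strand), fell from 35.9, 32, 34.4 and 28.4 CPM to 9.63, 12, 12.4 and 9.57 CPM in microglia. In tissue it rose from 19.8, 18.6, 19.6 and 17.9 CPM to 37.2, 43, 36.3 and 44.6 CPM. No group overlapped, with effects of -1.59 and 1.09 and a difference of -2.68 (SE 0.15, adjusted p = 7.44e-10). Phyhd1, a dioxygenase-domain protein (chr2:30266203-30282149, plus strand), fell from 360.4, 373, 363 and 361 CPM to 174, 241, 202 and 189 CPM in microglia. It rose from 15, 15.1, 12.9 and 13.5 CPM to 28.4, 27.1, 26.1 and 37 CPM in tissue, also without overlap (difference -1.93, SE 0.15). Il6ra, the receptor chain for interleukin 6 (chr3:89864059-89913196, minus strand), had effects of -0.74 and 0.80, and Arap3, a regulator of small GTPases, -1.11 and 0.75. The other 8 had group means below 10 CPM in both groups of at least 1 of the 2 tissues, and they complete the group. Vwf, the clotting factor carrier of endothelium, had a difference of -3.34, Procr, the protein C receptor, -2.63, Fli1, an ETS transcription factor, -1.38, and Gimap6, a GTPase of immune cells, -3.75. Plekha4, Ccdc85b and 9930111J21Rik2 had differences of -1.83, -1.26 and -1.32, and S100a9 of -6.78. S100a9 and Procr passed the low-count filter in tissue only through their LPS samples, and untreated Procr was at 0.313 to 0.804 CPM. In microglia S100a9, Vwf and Plekha4 passed it through their PBS samples. The filter thus favoured the direction called in these genes. The microglia groups of Procr, Plekha4 and Ccdc85b overlapped.

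The summed levels of endothelial and of neutrophil markers moved with these genes, and both lists hold an opposite gene themselves, Pecam1 and S100a9. The summed level of 13 endothelial markers in the microglia libraries had a median of 188 CPM with PBS and 85.1 CPM with LPS, and in tissue of 327 CPM untreated and 447 CPM with LPS, with no overlap in either. In microglia most of that sum was Eng, a TGF-beta co-receptor (137 to 63.7 CPM), and the endothelial markers Cldn5 and Tek had 0 counts in all 8 microglia libraries. Of the 13 markers 3 were at 0 in all 4 libraries of either microglia group. S100a9, a calcium-binding protein abundant in neutrophils, measured 7.68, 15.6, 11.8 and 11 CPM in PBS microglia and 1.90, 0.856, 0 and 0.662 CPM with LPS. In tissue it measured 0.302, 0.194, 0.310 and 0.209 CPM untreated and 1.69, 2.48, 1.57 and 3.03 CPM with LPS. The 7 neutrophil markers summed to 32.6 to 69.6 CPM in PBS microglia and 1.61 to 7.80 CPM with LPS, and to 0.503 to 1.03 CPM and 3.06 to 7.53 CPM in untreated and LPS tissue. Of 4 tested endothelial markers 3 were lower in microglia and 1, Pecam1 itself, was higher in tissue, and the difference was called below 0 in 3. The tissue sum of endothelial markers included Pecam1 (mean 18.9 CPM untreated and 40.3 CPM with LPS) and Ly6c1, which is given below. The 5 mural cell markers had a median sum of 206 CPM untreated and 194 CPM with LPS in tissue, and the 5 red blood cell markers of 202 CPM and 83.5 CPM. Both pairs overlapped, at 198 to 221 and 146 to 202 CPM for mural cells and at 110 to 281 and 58.5 to 158 CPM for red blood cells. The part of any of these cells in the opposite genes was not tested.

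Interferon-response genes rose in both tissues. Of 23 tested genes, 23 were higher in microglia and 20 in brain tissue, with medians of 2.18 and 2.05. The difference was called above 0 for 3 genes. It was called below 0 for 0 by edgeR and limma-voom, for 1 by DESeq2, and for 2 at an unadjusted p under 0.05. Isg15, a ubiquitin-like protein (chr4:156199424-156200818, minus strand), measured 3.73, 5.75, 4.27 and 4.18 CPM in PBS microglia and 32.6, 7.79, 23.9 and 27.8 CPM with LPS. In tissue it went from 2.41, 1.65, 2.17 and 2.82 CPM to 8.23, 10.7, 9.55 and 9.10 CPM. The effects of 2.36 and 2.05 gave a difference of 0.31 (95% interval -0.77 to 1.39, adjusted p = 0.651). Without replicate 2 of the LPS microglia, 9 genes of the list had a difference called above 0 and 1 below. Ifitm3, a membrane protein that blocks viral entry, was 296, 37.8, 192 and 259 CPM in the LPS microglia, lowest in replicate 2, and its difference went from 1.04 (adjusted p = 0.286) to 1.38 (adjusted p = 0.00189) without it. Stat2 and Cmpk2 were higher in microglia only. Stat2, a transcription factor of interferon signalling, had effects of 1.54 and 0.40, and Cmpk2, a mitochondrial nucleotide kinase, 2.12 and 0.16. The third, Ifit2, had effects of 1.60 and 0.45 and kept its call for the difference in 8 of 24 alternatives.

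Inflammatory mediators were mixed. Of 15 tested genes of inflammatory signalling and the acute phase, 10 were higher in microglia and 9 in tissue, and the difference was called above 0 for 2 and below 0 for 4. Socs3, a feedback inhibitor of cytokine signalling (chr11:117966079-117970047, minus strand), rose from 34.1, 39.8, 35.4 and 35.5 CPM to 430.4, 350.2, 377 and 376 CPM in microglia. In tissue it rose from 1.41, 2.92, 2.38 and 2.09 CPM to 4.64, 8.02, 8.22 and 7.30 CPM, and the larger response of microglia gave a difference of 1.74 (SE 0.25, adjusted p = 2.03e-05). Nfkb1, the p50 subunit of NF-kappaB, fell in microglia from 191 ± 9.50 to 99.4 ± 6.71 CPM (SD, n = 4) and measured 20.3 ± 2.79 and 25.1 ± 1.71 CPM in tissue. Saa3, an acute-phase protein, rose in both (10.68 and 9.32) without a called difference. Of the 16 chemokines in the list only 4 could be tested in both tissues, and Ccl5, Cxcl10 and Cxcl16 rose in both while Ccl9 fell in microglia (-1.41). The difference of Ccl9 was -1.09, and -0.73 (adjusted p = 0.139) without replicate 4 of the LPS tissue.

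Among the 178 genes called in the same direction in both tissues, the difference was called for 37. It was larger in microglia for 21 of the 161 higher genes and 7 of the 17 lower genes, and larger in tissue for 9 of the higher and none of the lower genes. Among well expressed genes, the differences of Atp7a, a copper transporter (-0.01, SE 0.21), and Bag3, a co-chaperone (-0.06, SE 0.17), were among the smallest. The largest was that of Ecm1, an extracellular matrix protein (chr3:95734147-95739569, minus strand), which measured 0.0718, 0.216, 0.725 and 0.216 CPM in PBS microglia and 49.9, 18.2, 57.3 and 51.4 CPM with LPS. In tissue Ecm1 went from 7.84, 8.55, 7.66 and 7.21 CPM to 14, 13.9, 12 and 14.9 CPM, so the effects were 7.18 and 0.81. Spp1 (osteopontin, chr5:104435118-104441050, plus strand) rose from 1.15, 1.72, 0.886 and 1.30 CPM to 141, 22.3, 75.7 and 112 CPM in microglia and from 14.9, 14.9, 15.5 and 15.7 CPM to 26.4, 23.6, 30.8 and 32.1 CPM in tissue (difference 5.21, SE 0.73). Lcn2, the iron-carrier protein lipocalin 2 (chr2:32384633-32388252, minus strand), went the other way. It measured 2.44, 3.23, 3.30 and 4.97 CPM in PBS microglia and 56.1, 5.91, 37.1 and 75.9 CPM with LPS. In tissue it measured 0.201, 0, 0.310 and 0.104 CPM untreated and 39.7, 42.6, 179 and 96.7 CPM with LPS. The difference of -5.44 had an SE of 2.01 (adjusted p = 0.0386), 1 untreated sample was at 0, and the call was lost in 10 of 24 alternatives.

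Genes that define microglia and their disease-associated state differed from each other. Of 20 homeostatic markers, 9 were lower and 2 higher in microglia, 4 were lower and 3 higher in tissue, and the difference was called below 0 in 11, which became 15 without replicate 2 of the LPS microglia. The median effect was -0.43 in microglia and 0.29 in tissue. P2ry12, a purinergic receptor (chr3:59216272-59262871, minus strand), fell from 7222, 6529.9, 6468 and 6174 CPM to 792, 1780.3, 950.1 and 759 CPM in microglia. It fell from 27.6, 25.2, 27.8 and 24 CPM to 11.8, 9.55, 4.35 and 9.21 CPM in tissue, with effects of -2.62 and -1.57, and the difference of -1.05 was not called in 19 of 24 alternatives. Tmem119, a membrane protein of homeostatic microglia, had effects of -0.46 and 0.46, neither of them called, with a called difference of -0.93 (SE 0.22). Of 12 transcription factors and receptors of the lineage, 3 were lower in microglia (Sall1, Maf and Tgfbr1), 1 higher in microglia (Runx1), 3 higher in tissue (Irf8, Spi1 and Runx1), and the difference was called below 0 in 6. Over all genes tested in both, 12.2% were lower and 14.3% higher in microglia, 2.72% were higher in tissue, and 13.8% had a difference below 0. The difference of Tgfbr1, a receptor for TGF-beta, was -0.63 and fell under the fold limit without replicate 1 of the LPS microglia (-0.58) or of the LPS tissue (-0.54).

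Of 13 tested disease-associated microglia genes in a list of 18, 8 were higher and 2 lower in microglia and 2 higher in tissue, with medians of 1.29 and 0.09. Over all genes tested in both, 14.3% were higher and 12.2% lower in microglia and 2.72% higher in tissue, so the 2 lower genes are near the share. Apoe, a lipid carrier that astrocytes also make (chr7:19696109-19699188, minus strand), rose from 300.5, 249, 226 and 195 CPM to 765, 331, 656 and 621 CPM in microglia. In tissue its 891, 874, 900.5 and 955 CPM untreated and 868, 874, 928 and 953 CPM with LPS overlapped, so the difference was 1.29 (SE 0.27, adjusted p = 0.00114). Axl, a receptor for apoptotic cells, and Csf1, a macrophage growth factor, rose in microglia by 1.70 and 2.02 and had effects of -0.02 and 0.36 in tissue. Cd9, a tetraspanin, and Ctsd, a lysosomal protease, fell in microglia (-1.25 and -1.03) and not in tissue (-0.09 and -0.05). The 2 tested markers of border macrophages, F13a1 and Cbr2, were higher in microglia only, with differences of 3.46 and 3.05, and the 6 border macrophage markers summed to 10.1 to 15.6 CPM in PBS and 27.3 to 44.5 CPM in LPS microglia. In tissue they summed to 5.43 to 7.86 CPM untreated and 9.31 to 13.2 CPM with LPS. Their part in the results above was not tested.

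Smaller lists held single genes of either kind. Of 8 tested genes of endothelial activation, 5 were higher and 1 lower in microglia and 3 higher in tissue. Lrg1, a glycoprotein of inflamed vessels, rose in both (9.17 and 3.27) with a difference of 5.87 (SE 1.42), Vcam1, a leukocyte adhesion molecule, rose in microglia only (1.79 against 0.49), and Plvap, of fenestrated endothelium, fell there only (-2.21 against -0.15). Of 5 tested reactive astrocyte genes 4 were higher in microglia and 4 in tissue, and Cd44, the hyaluronan receptor, differed most (2.95 against 0.14). Of 12 tested glucocorticoid-responsive and metallothionein genes, 2 were higher and 1 lower in microglia and 1 higher in tissue, beside 14.3% higher and 12.2% lower in microglia and 2.72% higher in tissue among all genes tested in both, so nothing is read from these counts. Sgk1, a kinase induced by glucocorticoids, fell in microglia (-1.12) and had an uncalled effect of 0.74 in tissue (difference -1.86, SE 0.37), and Sult1a1, a sulfotransferase, rose in tissue only (0.48 against 1.51). Of 8 tested immediate early genes, Ier2 had a called difference (2.02, SE 0.55), and Nr4a1, also of that list, fell in microglia (-1.21) without one. Among the markers of other cells, Slc1a3, the astrocyte glutamate transporter, was lower in microglia only (-0.74 against 0.00), and the 4 tested haemoglobin genes had no called difference by edgeR, DESeq2 or limma-voom and none at an unadjusted p under 0.05.

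For 6244 genes the effects could not be set against each other, because the gene passed the filter in 1 tissue. Brain tissue alone gave 4170 of these, with 99 higher and 49 lower, and microglia alone 2074, with 309 higher and 364 lower. Gfap, the filament protein of astrocytes, rose from 160.0 to 412 CPM in tissue (1.36, adjusted p = 0.00611), Serpina3n, a protease inhibitor of reactive astrocytes, from 13.2 to 116 CPM (3.13), and Ly6c1, an endothelial surface protein, from 24.2 to 71.9 CPM (1.57). Each averaged under 1 CPM in both microglia groups. The chemokine Ccl2 rose from 3.93 to 131 CPM in microglia (5.04), and Ccl12 from 46.7 to 1561 CPM (5.06). The cytokines Il1b and Tnf rose by 4.89 and 4.18. In tissue these 4 averaged 0.877, 4.39, 0.980 and 0.583 CPM with LPS and did not pass the filter.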

How the data were processed

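RNA-seq was compared between 8 libraries of sorted microglia (4 LPS, 4 PBS) and 8 of brain tissue (4 LPS, 4 untreated). The authors deposited expected counts per gene, which need not be whole numbers, in 1 table for microglia (47643 genes) and 1 for brain tissue (43411 genes), with 43241 Ensembl identifiers in common. The genome build was mm10 per the submitters' processing notes. The aligner, the counting program and any strand setting were not given in the sources used here. Counts were rounded, which changed the totals by at most 0.00113%. The 92 spike-in names of the tissue table held no counts. Genes were kept with edgeR 4.0.16 (filterByExpr, minimum count 10, minimum total 15) within each tissue, scaled by TMM within each tissue, and tested with the quasi-likelihood test in R 4.3.3. The difference of effects was 1 contrast over all 16 samples, the separate effects were fitted within each tissue, and p-values were adjusted over all genes of a fit by Benjamini-Hochberg. Calls required an adjusted p under 0.05 and a fold change over 1.5. A gene could pass the filter through 1 group alone, as Lcn2 did in tissue and Ecm1 in microglia through the LPS samples. Hlf, Dbp and Nr1d1 passed it in microglia through the PBS samples.

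Gene positions are those of GENCODE M21 (GRCm38). Levels in CPM are not corrected for gene length, so they were not compared between genes. Named genes were the 5 protein-coding genes of each one-tissue class, and of each sign of the opposite class, with the smallest p of the difference and a mean of at least 10 CPM in the tissue or tissues that moved, and the 3 smallest and 3 largest differences among genes called in both. Some genes that these rules select are not reported here. Other genes in the text are members of the gene lists. The members, the lists and the rules of the classes were chosen with earlier results of these data known. Alternatives were DESeq2 1.42.0, limma 3.58.1, other scalings and filters, a replicate block and leaving out each library. List counts without replicate 2 of the LPS microglia, and list counts by other tools, were chosen after seeing the data. The fits were also run on simulated data, with the spread between samples set to that of the main fits.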

Additional observations from a re-analysis of the deposited data

Results flagged for a closer look

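The effect of LPS differed between microglia and brain tissue, by the test of the difference itself, for 2897 of the 10913 genes. Of these, 1145 were higher in microglia only, 1094 lower in microglia only, 91 higher in brain tissue only, 4 lower in brain tissue only and 16 opposite in direction. Since tissue, library kit, run and type of control coincide, these sources of a difference cannot be told apart.

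A single sample lay far from the other 3 of its group in 5 of 164 groups examined by Dixon's test, and chance gives about 1 in 20. In replicate 3 of the LPS tissue, Apba1 (209 CPM), Abi3 (11.1 CPM) and Pltp (26.1 CPM) were each the lowest of their group. In replicate 1 of the PBS microglia the summed astrocyte markers were the lowest (255 CPM), and in replicate 1 of the untreated tissue Atp7a was the highest (9.75 CPM).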

How the results depend on the processing

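The counts depended most on the fold limit. Without it the difference was called for 5025 genes, microglia for 6703 and brain tissue for 1533 of all genes tested in each, and the classes held 2030 genes higher and 1995 lower in microglia only, 45 lower in brain tissue only and 260 opposite. A minimum count of 50 gave 288 genes called in tissue, 50 higher in tissue only and 9 opposite. The 4 genes lower in tissue only became 14 without a low-count filter, 7 with DESeq2, 7 with limma-voom, and 3 to 8 when single libraries were left out (7, 8 and 7 without replicates 1, 2 and 3 of the LPS tissue). Leaving out single libraries gave 2805 to 3253 genes with a called difference, 3373 to 4044 called in microglia and 412 to 543 in tissue, the highest for the first 2 without replicate 2 of the LPS microglia. With a replicate block these were 2865, 3452 and 448, but deviations of samples with the same number correlated at only -0.078 to 0.043, so the numbers did not pair the samples. The share of tissue calls that were higher fell from 82.7% to 59.6% without the fold limit. Of 156 named genes, 120 kept their direction and side of the limits in every alternative, 36 changed side in at least 1, and 0 reversed. The largest numbers of lost calls were for P2ry12 (19 of 24), Ifit2 and Nfkbiz (16 each), Icam1 (15), H2-D1 (12) and Lcn2 (10).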
